A study of Homo sapiens with 9 samples.

Results

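The ERK pathway feedback genes are 10 genes whose products restrain or report signalling through the kinases ERK1 and ERK2. They are the phosphatases DUSP4, DUSP5 and DUSP6, the inhibitors SPRY1, SPRY2, SPRY4, SPRED1 and SPRED2, and the transcription factors ETV4 and ETV5. They were taken by gene symbol from the deposited table, which lists 17083 genes, and all 10 were found. RNA was sequenced from HEK293T, a human embryonic kidney line that is readily transfected and whose cell type the labels give as epithelial cells. All 9 libraries are labelled with the WT genotype, and the labels separate the groups by the overexpressed construct. One group of 3 overexpressed PLK2, a serine/threonine kinase of the polo-like family, with a FLAG tag. Another group of 3 overexpressed FLAG-tagged PLK2(D223N), which has a single amino acid substitution, and the remaining 3 received the FLAG Vector. The series describes the libraries of a group as biological replicates.

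In the ERK cascade, a growth factor receptor activates RAS, and the kinases RAF, MEK and ERK are then phosphorylated in turn. Active ERK induces transcription, partly through ETS family factors, and among its targets are proteins that shut the pathway down again. The dual-specificity phosphatases remove phosphate from ERK, while Sprouty and Spred proteins act upstream at RAS and RAF. ETV4 and ETV5, ETS factors induced by FGF signalling in many tissues, are often read together with DUSP6 and SPRY4 as an RNA record of pathway activity. Phosphorylation of ERK was not measured in these data.

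The libraries held between 14288165 and 16510186 estimated counts. PLK2 itself averaged 23744 ± 2384 CPM (counts scaled to library size) in PLK2 libraries, 12358 ± 1650 CPM in PLK2(D223N) libraries and 3.42 ± 0.64 CPM in Vector libraries (SD, n = 3 each), and these counts do not tell its 2 forms apart. Summed CPM of epithelial and HEK293 markers lay at 571 to 608 in PLK2 libraries, 588 to 598 in PLK2(D223N) libraries and 581 to 666 in Vector libraries, with 8 of 9 markers in the table. VIM made up most of that sum, averaging 512, 506 and 524 CPM in PLK2, PLK2(D223N) and Vector libraries. In Vector libraries KRT18 averaged 43.7, KRT8 19.6, CDH2 16.6, CDH1 3.61, EPCAM 1.97, PAX2 0.416 and NEFM 0.0198 CPM, and KRT19 was not in the table. Of 10 microglia and macrophage markers, PTPRC, AIF1, TREM2 and TYROBP were not in the table. The other 6 summed to 3.10 to 3.18 CPM in PLK2, 1.60 to 2.80 CPM in PLK2(D223N) and 3.09 to 3.67 CPM in Vector libraries. Of these, ITGAM averaged 1.88, 1.05 and 1.95 CPM in PLK2, PLK2(D223N) and Vector libraries. Of 10 fibroblast markers, DCN was not in the table. The other 9 summed to 14.1 to 16.6 CPM in PLK2, 15.7 to 17.5 CPM in PLK2(D223N) and 14.9 to 16.1 CPM in Vector libraries. No marker in the table was at 0 in all 9 libraries, and the part of any marker in the results below was not tested. Vector replicate 1 stood apart: its chi-square per gene was 17.7 against Vector replicate 2 and 10.8 against replicate 3, while the other pairs within a group lay between 1.63 and 2.81. Values of the feedback genes are therefore also given without that library where this changed a call or a direction.

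Most feedback genes were transcribed at low levels in these cells. Levels are compared between genes by the deposited TPM, which is scaled for transcript length. Averaged over the 9 libraries, SPRED2 had the highest level, 14.3 ± 1.2 TPM, followed by SPRY2 at 8.35 ± 0.63 TPM, SPRY1 at 8.35 ± 0.71 TPM and SPRED1 at 4.14 ± 0.34 TPM (SD, n = 9). DUSP5 was at 2.42 ± 0.28 TPM. The remaining 5 genes were below 1 TPM, namely ETV4 at 0.657, DUSP4 at 0.453, ETV5 at 0.320, DUSP6 at 0.216 and SPRY4 at 0.0722 TPM. The median over all listed genes was 9.78 TPM, so SPRED2 alone of the 10 exceeded it, with 55.9% of listed genes below it, while 14.0% of listed genes lay below SPRY4.

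Some neighbours in this order were separate and some were not. The lowest SPRED2 library was above the highest SPRY2 library, and the same held for SPRY1 over SPRED1, SPRED1 over DUSP5 and DUSP5 over ETV4. SPRY2 and SPRY1 could not be ordered, SPRY2 being the higher in 5 of 9 libraries. ETV4 exceeded DUSP4 in 9 of 9 libraries, though their ranges overlapped. DUSP4 exceeded ETV5 in 8 of 9 libraries, ETV5 exceeded DUSP6 in 7 of 9 and DUSP6 exceeded SPRY4 in 8 of 9, all with overlapping ranges.

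**Figure D1:**
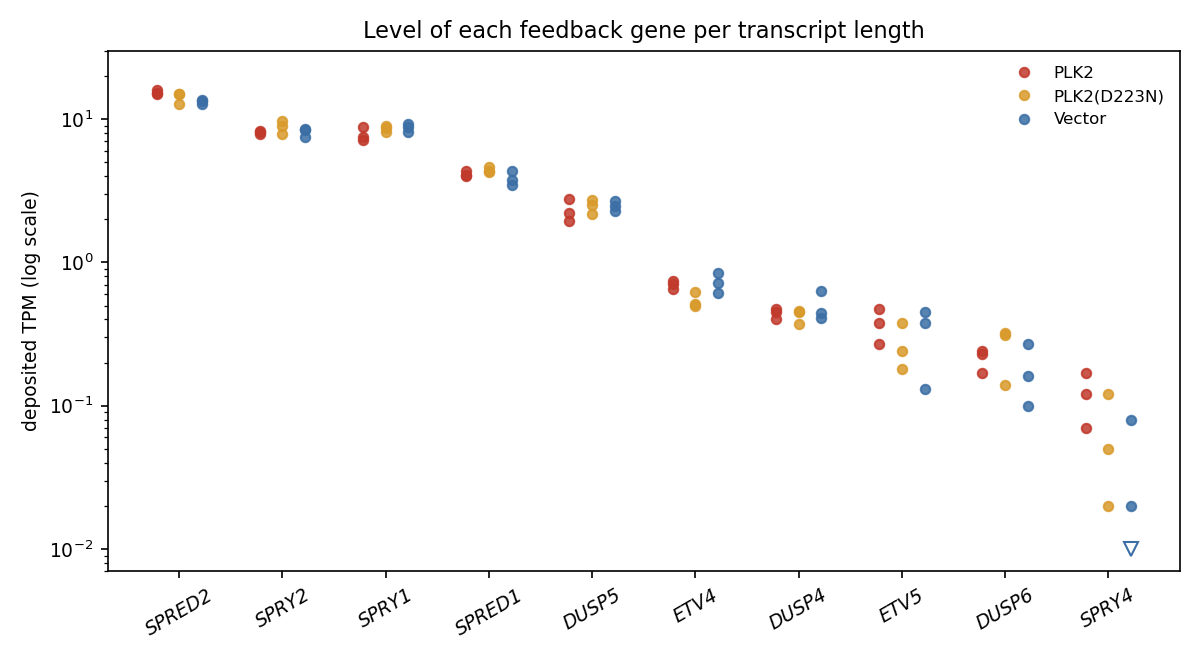
TPM of each feedback gene in each of the 9 libraries on a log axis, with genes in order of their mean TPM and symbols by group (PLK2, PLK2(D223N), Vector). SPRED2 lies highest at a mean of 14.3 TPM and SPRY4 lowest at 0.0722 TPM; the open triangle marks the Vector library in which SPRY4 was listed at 0.

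How far each gene varied over the 9 libraries was set beside counting error. Counting error alone gives ratios of observed to counting variance that scatter around 1. The median of this ratio over the 12924 genes tested was 2.22. It was 3.36 for SPRED2, the only feedback gene above that median. SPRY4 had a ratio of 2.10, ETV5 1.64, SPRED1 1.36 and SPRY1 1.21. DUSP4, DUSP6, DUSP5, SPRY2 and ETV4 had ratios between 0.340 and 0.803. Whether any of these ratios differed from 1 was not tested. The ratio also depends on depth, and the median was not taken over genes of similar depth. The depth differed greatly between genes: SPRED2 had 4502 counts over all libraries, against 99 for ETV5, 92 for ETV4, 55 for DUSP6 and 28 for SPRY4.

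The promoter windows of the SPRED2, SPRY4 and EGR1 genes are printed because SPRED2 came nearest to a call, SPRY4 had the widest ratio of counts, and EGR1 was the ERK-responsive gene that rose with both forms of PLK2. Each runs from 250 bases before to 50 after a RefSeq transcription start in GRCh38.p14, 5′ to 3′ on the gene's strand, and capitals mark motif matches. The SPRED2 window is chr2:65432550-65432849 on the minus strand, the SPRY4 window chr5:142324198-142324497 on the minus strand, and the EGR1 window chr5:138465229-138465528 on the plus strand.
SPRED2: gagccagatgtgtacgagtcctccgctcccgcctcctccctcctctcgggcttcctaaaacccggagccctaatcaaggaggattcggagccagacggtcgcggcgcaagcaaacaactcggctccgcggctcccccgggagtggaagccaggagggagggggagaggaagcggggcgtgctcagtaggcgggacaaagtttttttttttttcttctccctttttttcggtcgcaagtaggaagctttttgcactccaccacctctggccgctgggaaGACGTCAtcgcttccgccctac
SPRY4: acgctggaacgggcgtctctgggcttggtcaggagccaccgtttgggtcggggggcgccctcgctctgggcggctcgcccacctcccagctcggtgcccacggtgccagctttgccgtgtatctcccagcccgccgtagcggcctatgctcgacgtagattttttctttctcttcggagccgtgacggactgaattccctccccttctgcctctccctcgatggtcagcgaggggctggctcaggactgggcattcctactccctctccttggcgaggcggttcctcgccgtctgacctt
EGR1: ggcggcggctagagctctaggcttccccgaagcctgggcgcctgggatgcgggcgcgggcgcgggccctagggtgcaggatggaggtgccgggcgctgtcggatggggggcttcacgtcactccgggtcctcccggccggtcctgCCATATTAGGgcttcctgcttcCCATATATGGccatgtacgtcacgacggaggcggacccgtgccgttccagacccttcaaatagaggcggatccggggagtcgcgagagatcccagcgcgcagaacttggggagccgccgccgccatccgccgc
The letters searched, on both strands, were CCGGAAG for ETS factors, TGANTCA for AP-1 and TGACGTC for the cyclic AMP response element, plus the CArG box, the core of serum response elements, by name. Over all 35116 windows of the table, 10.3% held the ETS letters, 7.71% the AP-1 letters, 3.45% the cyclic AMP response element and 1.29% a CArG box. The capitals of SPRED2 are a cyclic AMP response element on the opposite strand, the printed SPRY4 window had no match, and the capitals of EGR1 are 2 CArG boxes. The table had 10 windows for 6 of the feedback genes (SPRED2, SPRED1, SPRY1, SPRY2, SPRY4 and DUSP6). Besides the printed match, 1 window of SPRY1 held the ETS letters, a second window of SPRED2 held the AP-1 letters, and none of the 10 held a CArG box.

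Overexpression of PLK2 was compared with Vector to ask which transcripts the kinase alters. In edgeR's quasi-likelihood test with Benjamini-Hochberg adjustment over all tested genes, 0 of the 8 feedback genes with enough counts passed an adjusted p of 0.05, against 0.511% of all tested genes (66 of 12924; 62 higher, 0.480%, and 4 lower, 0.0310%). The 66 include the overexpressed PLK2 itself. One of the 8, SPRED2, had an unadjusted p below 0.05, against 16.4% of all genes, and DESeq2 called 0 of the 8 and limma on TPM 0 of 5. The median log2 fold change of the 8 was 0.00, equal to that of all tested genes, and 5 of the 8 were above 0. DUSP6 and SPRY4 did not pass the filter on low counts and are given by their counts. In bulk RNA such as this, fewer cells carrying a transcript and less RNA per cell cannot be told apart.

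**Figure D2:**
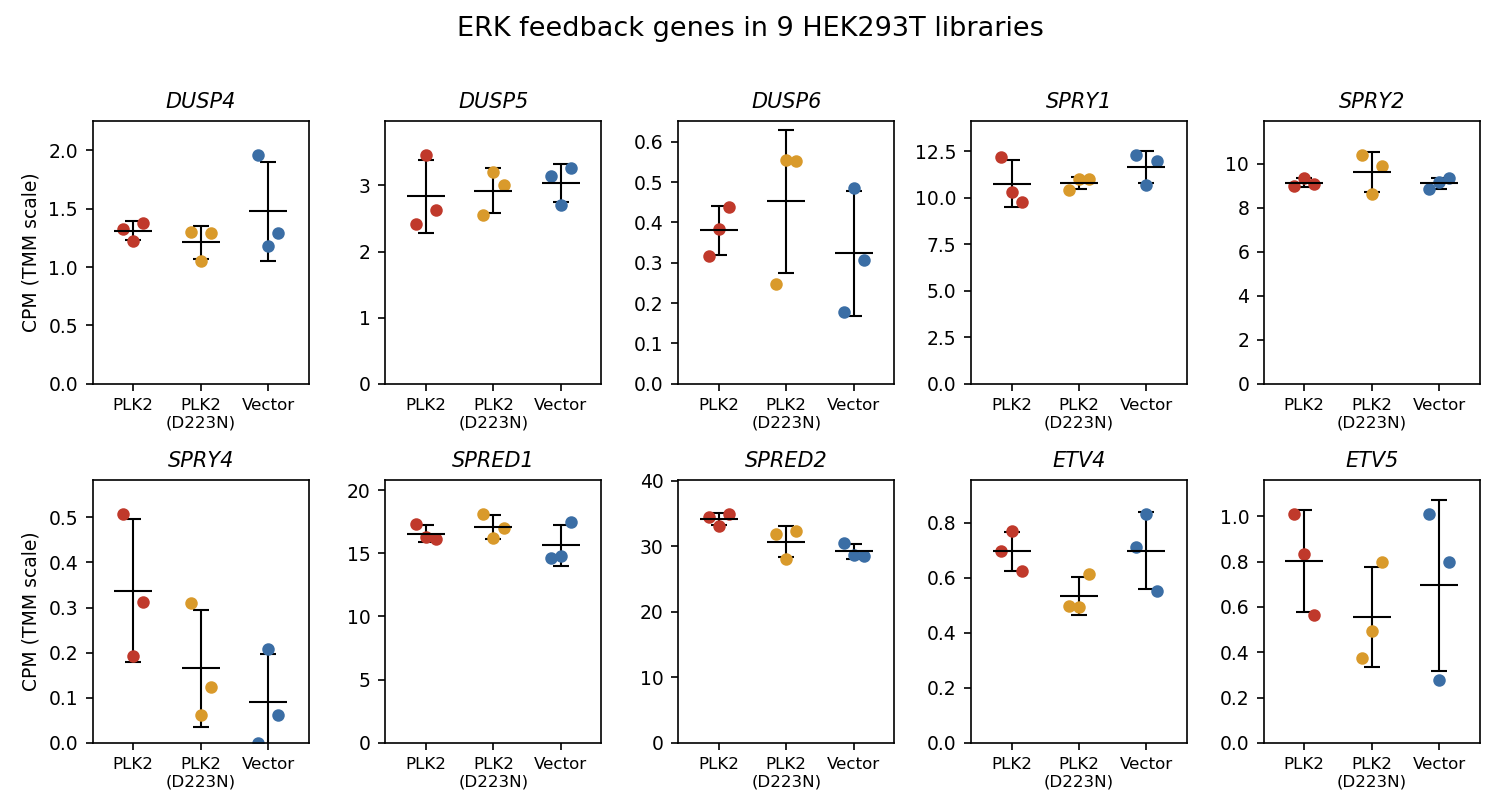
CPM of each feedback gene per library (points), with group means and SD bars, in PLK2, PLK2(D223N) and Vector libraries from left to right (n = 3 each). SPRED2 is the gene whose PLK2 libraries, 33.1 to 34.9 CPM, all lie above the Vector libraries at 28.5 to 30.5 CPM; the lower bar of SPRY4 in Vector is cut at 0.

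Among the phosphatases, DUSP4 is a nuclear enzyme that acts on ERK and also on JNK and p38. DUSP4 (gene ID 1846; chromosome 8, 29333064 to 29350668, minus strand, GRCh38) was at 1.33, 1.22 and 1.38 CPM in the PLK2 libraries, 1.30, 1.05 and 1.29 CPM in PLK2(D223N) libraries and 1.96, 1.18 and 1.29 CPM in Vector libraries. Vector replicate 1 was the highest of the 9, and the other 8 libraries overlapped between the groups. The log2 fold change of DUSP4 was -0.19 (SE 0.24, adjusted p = 0.702, edgeR) for PLK2 against Vector, and 0.08 without Vector replicate 1. DUSP5, a nuclear phosphatase that acts on ERK with high specificity, lies on chromosome 10 (gene ID 1847; 110497838 to 110511544, plus strand). It was at 2.41, 3.46 and 2.63 CPM in PLK2 libraries, 2.55, 3.21 and 3.01 CPM in PLK2(D223N) libraries and 3.15, 2.71 and 3.26 CPM in Vector libraries. All 3 groups overlapped, and the log2 fold change of PLK2 over Vector was -0.11 (SE 0.18, adjusted p = 0.773, edgeR), with a 95% interval for the fold of 0.717 to 1.20.

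DUSP6, the cytoplasmic phosphatase that is the classical negative feedback enzyme of ERK, lies on chromosome 12 (gene ID 1848; 89347232 to 89353271, minus strand). It had 5, 6 and 7 counts in PLK2 libraries, 4, 9 and 9 in PLK2(D223N) libraries and 3, 7 and 5 in Vector libraries. These ranges overlapped. Summed and scaled for depth, the ratio of PLK2 to Vector was 1.20, with an exact 95% interval of 0.573 to 2.57 that covers counting error only. On the log2 scale this ratio was 0.27, and -0.04 without Vector replicate 1. A difference in DUSP6 smaller than that interval was not detectable at this depth.

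SPRY1 and SPRY2, which are inhibitors of receptor tyrosine kinase signalling, were the best measured of the Sprouty genes. SPRY1 (gene ID 10252; chromosome 4, 123396795 to 123403760, plus strand) was at 12.2, 10.3 and 9.78 CPM in PLK2 libraries, 10.4, 11.0 and 11.0 CPM in PLK2(D223N) libraries and 12.3, 10.7 and 12 CPM in Vector libraries. SPRY2 (gene ID 10253; chromosome 13, 80335976 to 80340951, minus strand) was at 8.99, 9.36 and 9.09 CPM in PLK2 libraries, 10.4, 8.64 and 9.90 CPM in PLK2(D223N) libraries and 8.86, 9.16 and 9.34 CPM in Vector libraries. Both genes overlapped between all groups. The log2 fold change of PLK2 over Vector was -0.12 (SE 0.10, adjusted p = 0.540, edgeR) for SPRY1. For SPRY2 it was 0.00 (SE 0.10, adjusted p = 0.986, edgeR), with a 95% interval of the fold of 0.871 to 1.16, and -0.02 without Vector replicate 1.

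SPRY4, another Sprouty inhibitor and one of the usual RNA readouts of FGF and ERK activity, had the fewest counts of the 10 genes. The gene (ID 81848) lies on chromosome 5 at 142310427 to 142326455 on the minus strand, where the annotation also places SPRY4-AS1 on the opposite strand. Its counts were 8, 3 and 5 in PLK2 libraries, 5, 1 and 2 in PLK2(D223N) libraries and 0, 3 and 1 in Vector libraries. A PLK2 library and a Vector library each had 3 counts, so the groups met at that value. The sums of 16 counts in PLK2 and 4 in Vector gave a depth-scaled ratio of 4.01, with an exact 95% interval of 1.29 to 16.5 for counting error alone. Without the filter on low counts, edgeR's quasi-likelihood test put SPRY4 at 1.91 (SE 0.80) on the log2 scale, at an adjusted p of 0.293. Leaving out 1 library at a time moved the log2 ratio of the sums between 1.37 and 3.48, and it was 1.37 without Vector replicate 1.

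SPRED1 and SPRED2 bind neurofibromin and bring it to RAS at the membrane. SPRED1 (gene ID 161742; chromosome 15, 38252326 to 38357249, plus strand) was at 17.3, 16.3 and 16.1 CPM in PLK2 libraries, 18.1, 16.2 and 17.0 CPM in PLK2(D223N) libraries and 14.6, 14.8 and 17.5 CPM in Vector libraries. Vector replicate 3 lay above the PLK2 libraries and the other 2 Vector libraries below them. The log2 fold change was 0.09 (SE 0.09, adjusted p = 0.613, edgeR). SPRED2 (gene ID 200734; chromosome 2, 65310851 to 65432637, minus strand) was at 34.4, 33.1 and 34.9 CPM in PLK2 libraries, 31.8, 28.0 and 32.3 CPM in PLK2(D223N) libraries and 30.5, 28.7 and 28.5 CPM in Vector libraries. Every PLK2 library was above every Vector library, and 20.1% of all tested genes were separate in this way in one direction or the other. The log2 fold change was 0.22 (SE 0.07), a fold with a 95% interval of 1.05 to 1.29, with an unadjusted p of 0.00544 and an adjusted p of 0.158 (edgeR's quasi-likelihood test).

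The SPRED2 difference kept its size under the other ways of processing, while its place beside the threshold did not stay fixed. Over 18 alternatives its log2 fold change for PLK2 over Vector lay between 0.20 and 0.26, and its adjusted p between 0.0229 and 0.407. It was called in 2 of them: with a correction for GC content and length (log2 fold change 0.25, adjusted p = 0.0229, edgeR), and without Vector replicate 1 (0.26, adjusted p = 0.0271, edgeR). Over the whole table, the GC content and length correction called 395 of 12841 tested genes. Without Vector replicate 1, 361 of 13020 were called, against 66 of 12924 in the reported fit. DESeq2's Wald test gave SPRED2 an adjusted p of 0.223.

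**Figure D3:**
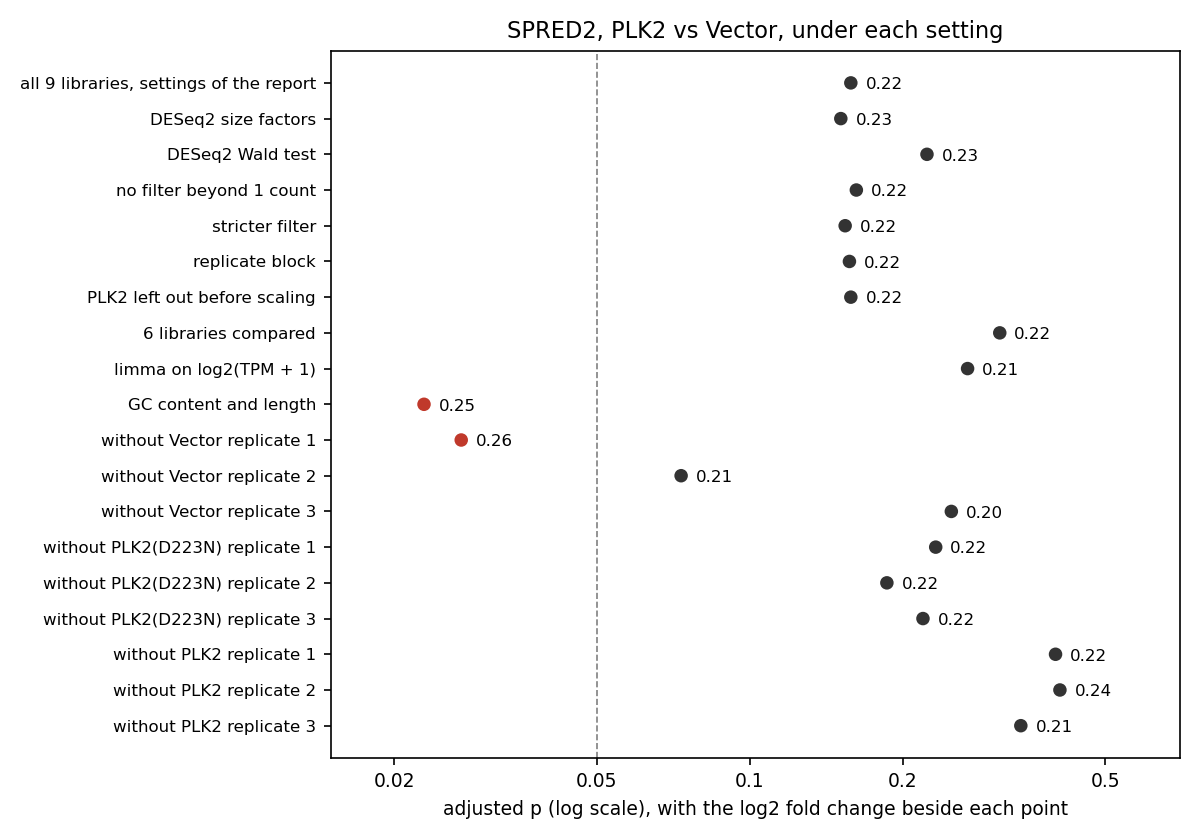
Log2 fold change of SPRED2 for PLK2 over Vector, with adjusted p, in the reported fit and under each of 18 alternatives. The fold change stays between 0.20 and 0.26, and the adjusted p is below 0.05 with the GC content and length correction (0.0229) and without Vector replicate 1 (0.0271).

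The ETV factors were low and did not separate PLK2 from Vector. ETV4 (gene ID 2118; chromosome 17, 43527844 to 43579620, minus strand), which overlaps DHX8 on the opposite strand, had 11, 12 and 10 counts in PLK2 libraries, 8, 8 and 10 in PLK2(D223N) libraries and 12, 12 and 9 in Vector libraries. ETV5 (gene ID 2119; chromosome 3, 186046308 to 186110318, minus strand), which overlaps DGKG on the same strand, had 16, 13 and 9 counts in PLK2 libraries, 6, 8 and 13 in PLK2(D223N) libraries and 17, 4 and 13 in Vector libraries. The ETV4 counts of PLK2 and Vector nearly coincided, and the ETV5 counts of Vector alone spanned those of both other groups. For ETV4 the log2 fold change of PLK2 over Vector was 0.00 (SE 0.30, adjusted p = 0.996, edgeR) and for ETV5 0.17 (SE 0.40, adjusted p = 0.852, edgeR). The 95% intervals of the fold, 0.648 to 1.55 for ETV4 and 0.621 to 2.03 for ETV5, leave room for changes of moderate size in either direction. The strand setting of the counting is not given in the sources used here. These overlaps are of whole gene spans, and whether reads of an overlapping gene entered the counts was not tested.

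**Figure D4:**
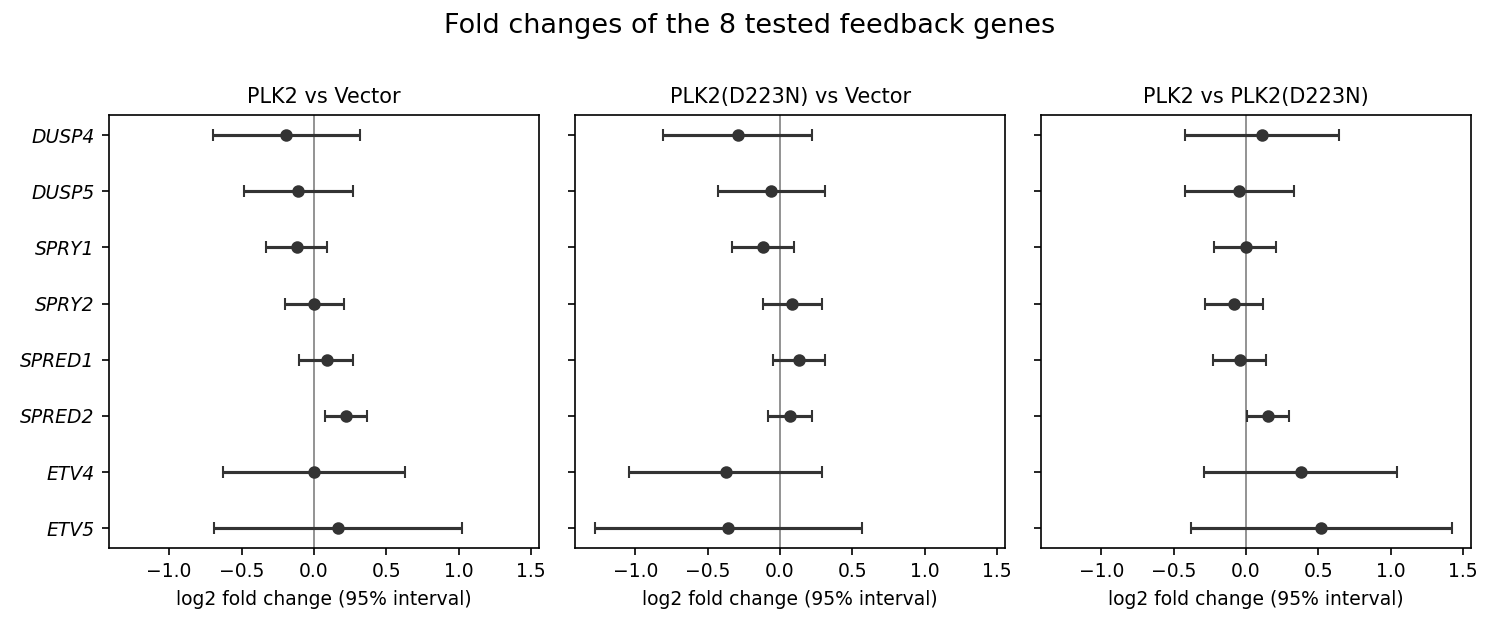
Log2 fold change of the 8 tested feedback genes, with 95% intervals, for PLK2 over Vector, PLK2(D223N) over Vector and PLK2 over PLK2(D223N). No gene passes an adjusted p of 0.05, and the intervals are narrowest for SPRED2 and widest for ETV5.

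For PLK2(D223N) against Vector, 0 of the 8 feedback genes were called by edgeR's quasi-likelihood test, against 0.0232% of all tested genes (3 of 12924, all higher), and DESeq2 called 0 of 8 and limma 0 of 5. The 3 called genes are the overexpressed PLK2 itself, EGR1 and ATF3. None of the 8 had an unadjusted p below 0.05, against 8.53% of all tested genes. Their median log2 fold change was -0.09, beside 0.01 over all tested genes, and 3 of the 8 were above 0. In no feedback gene were the 3 PLK2(D223N) libraries separate from the 3 Vector libraries, against 13.9% of all tested genes. SPRED2 stood at 0.07 on that scale (SE 0.07, adjusted p = 0.721, edgeR), SPRED1 at 0.13 (SE 0.09, adjusted p = 0.611) and SPRY2 at 0.08 (SE 0.09, adjusted p = 0.755). Those of SPRY1, DUSP5, DUSP4, ETV5 and ETV4 were -0.12, -0.06, -0.29, -0.36 and -0.37, with edgeR adjusted p between 0.666 and 0.911; that of ETV5 was 0.01 without Vector replicate 1. The ratio of summed DUSP6 counts was 1.43 (22 in PLK2(D223N), 15 in Vector; exact 95% interval 0.711 to 2.97), and that of SPRY4 was 1.96 (8 in PLK2(D223N), 4 in Vector; 0.524 to 8.88).

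Setting PLK2 against PLK2(D223N) compares the kinase with its substituted form, at a higher PLK2 transcript level in the first. The edgeR test called 0 of the 8 feedback genes, against 0.162% of all tested genes (21 of 12924; 20 higher, 0.155%, and 1 lower, 0.00774%), and DESeq2 called 0 of 8 and limma 0 of 5. The 21 include PLK2 itself. SPRED2 was the gene with an unadjusted p below 0.05 (6.04% of all tested genes had one): its log2 fold change was 0.15 (SE 0.07, 95% interval of the fold 1.01 to 1.23), with an unadjusted p of 0.0394 and an adjusted p of 0.787 in edgeR. SPRED2 and ETV4 were higher in CPM in all 3 PLK2 libraries than in any PLK2(D223N) library, 2 of 8 genes, against 20.5% of all tested genes whose libraries were separate in either direction. The log2 fold change of ETV4 was 0.38 (SE 0.31, adjusted p = 0.943, edgeR), from 33 counts in PLK2 and 26 in PLK2(D223N), and that of ETV5 was 0.52 (SE 0.42, adjusted p = 0.931, edgeR). SPRY1, SPRY2, SPRED1, DUSP4 and DUSP5 lay between -0.08 and 0.11, with edgeR adjusted p of 0.971 or more. The median over the 8 genes was 0.05, and 0.00 over all tested genes. This comparison shares its PLK2 libraries with the first and its PLK2(D223N) libraries with the second, so the 3 sets of values are not independent.

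The other genes around the pathway were read from the same fit. Of 38 genes of the ERK cascade (receptors, adaptors, RAS, RAF, MEK, ERK and RSK genes), 0 were called by edgeR, DESeq2 or limma on all 9 libraries in any of the 3 comparisons. Of all tested genes, edgeR called 0.511% for PLK2 against Vector, 0.0232% for PLK2(D223N) against Vector and 0.162% for PLK2 against PLK2(D223N). At an unadjusted p below 0.05 there were 7, 2 and 2 of the 38 in the same order. The shares over all tested genes were 16.4%, 8.53% and 6.04%. The median log2 fold changes of the 38 were 0.00, 0.05 and -0.01. The smallest p-values for PLK2 against Vector were those of RPS6KA1, a kinase phosphorylated by ERK, at 35.1 ± 1.1 CPM in PLK2 and 40.5 ± 3.1 CPM in Vector libraries (log2 fold change -0.21, adjusted p = 0.175, edgeR), and FRS2, an FGF receptor adaptor, at 78.3 ± 3.1 CPM in PLK2 and 67.0 ± 7.6 CPM in Vector libraries (0.23, adjusted p = 0.181; SD, n = 3 each). Both were called in 1 of 18 alternatives, that without Vector replicate 2 (edgeR adjusted p = 0.0378 for RPS6KA1 and 0.0208 for FRS2). That alternative called 1658 of 13028 tested genes. The log2 fold change of FRS2 was 0.13 without Vector replicate 1 and 0.08 with the GC content and length correction, and that of RPS6KA1 was -0.14 and -0.16. For PLK2(D223N) against Vector they were those of the docking protein gene GAB1 (0.19) and the RAF activator SHOC2 (0.16), each at an edgeR adjusted p of 0.573; without Vector replicate 1 these values were 0.09 for GAB1 and 0.07 for SHOC2. For PLK2 against PLK2(D223N) they were the receptor genes FGFR2 (-0.17, adjusted p = 0.732, edgeR) and FGFR3 (-0.15, adjusted p = 0.779, edgeR).

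Of 10 further phosphatase, Sprouty, Spred and ETV family genes, 9 were tested and edgeR called 0 in each comparison, against 0.511%, 0.0232% and 0.162% of all tested genes. At an unadjusted p below 0.05 there were 2, 1 and 1 of the 9, against 16.4%, 8.53% and 6.04% of all tested genes. For PLK2 against Vector the nearest was DUSP8, a phosphatase acting mainly on JNK and p38. It averaged 6.76 ± 1.0 CPM in PLK2, 4.90 ± 0.52 CPM in PLK2(D223N) and 4.18 ± 0.69 CPM in Vector libraries (SD, n = 3 each). Its log2 fold change for PLK2 over Vector was 0.70 (SE 0.15) at an adjusted p of 0.0524 in edgeR. DESeq2 called it at an adjusted p of 0.0285, and 6 of 18 alternatives did so, with a range of 0.00343 to 0.272 and a value of 0.0127 without Vector replicate 1. DUSP16, which acts mainly on JNK, differed by 0.22 in log2 units (edgeR adjusted p = 0.0879, SE 0.06) and was called in 3 of 18 alternatives, among them that without Vector replicate 1 (adjusted p = 0.00124). Without that library, 361 of 13020 tested genes were called. For PLK2(D223N) against Vector the smallest p-values were those of DUSP16 (0.13, adjusted p = 0.573, edgeR) and DUSP10, a phosphatase of p38 and JNK (0.31, adjusted p = 0.574, edgeR). For PLK2 against PLK2(D223N) they were those of DUSP8 (0.46, SE 0.15, adjusted p = 0.544, edgeR), which was called in 1 of 18 alternatives, the fit of 6 libraries (adjusted p = 0.0325), and DUSP16 (0.09, adjusted p = 0.903, edgeR). Over the whole table, that fit of 6 libraries called 374 genes higher and 128 lower, against 20 and 1 in the fit of 9 libraries.

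The other ERK-responsive genes, largely immediate-early and late-response genes, held the calls. For PLK2 against Vector, 1 of 30 tested genes rose and 1 fell, and for PLK2(D223N) against Vector 2 rose and 0 fell, against 0.511% and 0.0232% of all tested genes called in the 2 comparisons. At an unadjusted p below 0.05 there were 10 of 30 for PLK2 against Vector (16.4% of all tested genes) and 6 of 30 for PLK2(D223N) against Vector (8.53% of all tested genes). For PLK2 against PLK2(D223N) edgeR called 0, DESeq2 0 and limma 1 (NAB2), with 5 of 30 at an unadjusted p below 0.05 (6.04% of all tested genes). This list was chosen with earlier results of these data known, so setting its counts beside these shares does not test the list. EGR1, an immediate-early zinc finger factor (gene ID 1958; chromosome 5, 138465490 to 138469315, plus strand), was at 5.64, 5.19 and 5.89 CPM in PLK2 libraries, 6.64, 5.31 and 6.33 CPM in PLK2(D223N) libraries and 2.67, 2.71 and 2.70 CPM in Vector libraries. Every library of either form lay above every Vector library, and the PLK2 and PLK2(D223N) libraries overlapped. Libraries were separate from Vector in either direction for 20.1% of all tested genes with PLK2 and 13.9% with PLK2(D223N). EGR1 rose by 1.05 on the log2 scale in edgeR's test with PLK2 (adjusted p = 0.00237, SE 0.14) and by 1.18 with PLK2(D223N) (adjusted p = 0.00228, SE 0.14), and was called in all 18 alternatives of each, including that without Vector replicate 1. Between PLK2 and PLK2(D223N) its log2 fold change was -0.13 (SE 0.12, adjusted p = 0.943, edgeR). The 2 comparisons share the Vector libraries.

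NAB2, which binds EGR proteins and represses their activity, was at 9.50, 8.91 and 9.15 CPM in PLK2 libraries, 12, 12.9 and 13.1 CPM in PLK2(D223N) libraries and 14.4, 11.9 and 13.3 CPM in Vector libraries. The PLK2 libraries were below all others, and the PLK2(D223N) and Vector libraries overlapped. Of all tested genes, 20.1% were separate in either direction for PLK2 against Vector and 20.5% for PLK2 against PLK2(D223N). With PLK2, NAB2 fell by 0.52 in log2 units (edgeR adjusted p = 0.0176, SE 0.09), a call kept in 13 of 18 alternatives and lost in a fit of 6 libraries and without Vector replicate 3 or any 1 PLK2 library (adjusted p up to 0.150). With PLK2(D223N) its log2 fold change was -0.06 (SE 0.09, adjusted p = 0.811, edgeR), and for PLK2 against PLK2(D223N) it was -0.46 (SE 0.09, adjusted p = 0.0851, edgeR; called in 5 of 18 alternatives, that without Vector replicate 1 among them). ATF3, a stress-induced leucine zipper factor, was at 73.8, 74.8 and 71.3 CPM in PLK2 libraries, 91.0, 80.9 and 86.8 CPM in PLK2(D223N) libraries and 69.1, 57.3 and 58.9 CPM in Vector libraries. Both forms lay above Vector in every library, and PLK2(D223N) lay above PLK2. The shares of separate genes given for NAB2 apply here too, with 13.9% for PLK2(D223N) against Vector. With PLK2(D223N), ATF3 rose by 0.48 in log2 units (edgeR adjusted p = 0.0261, SE 0.07), called in 10 of 18 alternatives and lost in the fit of 6 libraries and without Vector replicate 3 or any 1 PLK2 or PLK2(D223N) library (adjusted p up to 0.438). For PLK2 against Vector it was 0.25 (SE 0.07, adjusted p = 0.135, edgeR), and for PLK2 against PLK2(D223N) -0.23 (SE 0.07, adjusted p = 0.446, edgeR, called in 3 of 18 alternatives, that without Vector replicate 1 among them). Without Vector replicate 1, 249 genes were called higher and 68 lower for PLK2 against PLK2(D223N) over the whole table.

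**Figure D5:**
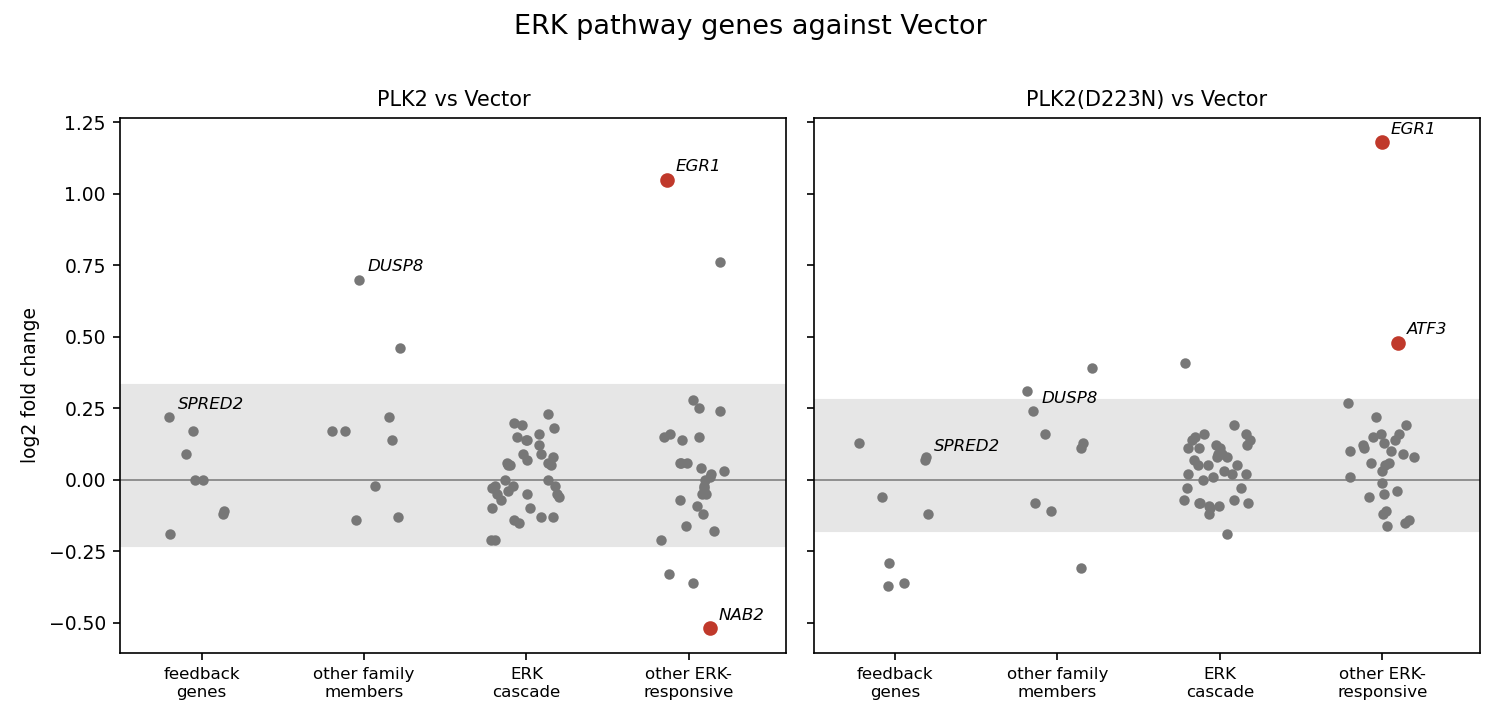
Log2 fold change of each tested feedback gene, further family gene, ERK cascade gene and other ERK-responsive gene for PLK2 over Vector (left) and PLK2(D223N) over Vector (right), with called genes in red and the 5th to 95th percentile of all tested genes as a grey band. The called points are EGR1 (1.05) and NAB2 (-0.52) for PLK2 over Vector and EGR1 (1.18) and ATF3 (0.48) for PLK2(D223N) over Vector, all in the ERK-responsive list.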

How the data were processed

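The labels put 9 HEK293T libraries in 3 groups of 3. The authors deposited one table of estimated counts with fractional parts, and the file headers also name TPM, FPKM and scaled counts. Per the submitters' processing notes, Bowtie2, RSEM 1.3.1, DESeq2 1.4.5 and GRCh38.p13 were used. Which gene annotation and strand setting were applied is not given in the sources used here. TPM values, made by the authors, served for levels between genes and for a limma alternative. A further 18 per-library columns (FPKM and scaled counts) and 12 group means were not used here. The column of one Vector library, whose title has transposed letters, was matched by its number.

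Estimated counts were rounded (87.1% to 88.5% lay within 0.005 of a whole number), filtered with filterByExpr to 12924 genes, scaled by TMM and fitted over all 9 libraries in edgeR 4.0.16 (R 4.3.3; glmQLFit, robust, and glmQLFTest) with group as the only term. P-values are two-sided and adjusted over all tested genes by Benjamini-Hochberg, with calls below 0.05, and the fit was tested on simulated data. Where nothing states separate cultures beyond the term biological replicate, p-values measure the spread between these libraries. Intervals for summed counts are exact binomial and cover counting error only. CPM are on the TMM scale except marker sums. Alternatives were DESeq2 1.42.0, limma 3.58.1 on log2(TPM + 1) where the gene's mean reached 1 TPM, other filters and scalings, a fit of only the 6 libraries compared, GC content and length correction (12841 genes), a replicate block, and each library left out. Python 3.11.15 was used for summaries. GENCODE release 29 on GRCh38 supplied coordinates, overlaps, length and GC content, and RefSeq the promoter windows.

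The members and lists were chosen with earlier results of these data known. All members are described; of each other list, called genes or else the 2 tested genes with the smallest p are named. Genes most like a member were those, among genes averaging 5 CPM or more, with the smallest root mean square difference of centred log2 CPM over 9 libraries. All log2 CPM values include a prior count.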

Additional observations from a re-analysis of the deposited data

How the results depend on the processing

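Over 18 alternatives per tested feedback gene (17 for DUSP4 and 15 or 16 for ETV4 and ETV5, which were too low for limma or for other filters), no call was made except for SPRED2 in PLK2 against Vector (GC content and length correction, and without Vector replicate 1). For PLK2 against Vector, where 66 genes were called, DESeq2's Wald test called 143, no filter 136, a fit of the 6 libraries 23, limma on TPM 19 and the GC content and length correction 395 (261 higher, 134 lower); leaving out 1 library gave 13 to 1658, with 361 without Vector replicate 1 and 1658 without Vector replicate 2. For PLK2(D223N) against Vector the 3 called genes became 9 with DESeq2, 5 without a filter and 8 with the GC content and length correction, and 2 to 348 with 1 library left out (21 without Vector replicate 1, 348 without Vector replicate 2). For PLK2 against PLK2(D223N) the 21 became 37 with DESeq2, 35 without a filter, 502 in the fit of 6 libraries, 11 with limma and 93 with the GC content and length correction, and 9 to 317 with 1 library left out (317 without Vector replicate 1). The replicate block gave 76, 4 and 20; libraries of the same number had correlations of -0.107 to 0.126, so the numbers were not taken as pairs. Feedback genes called for PLK2 against Vector numbered 1 with the GC content and length correction and 0 to 1 with 1 library left out. Their median log2 fold change with limma, over 5 genes, was 0.09 for PLK2(D223N) against Vector and -0.08 for PLK2 against PLK2(D223N); with 1 library left out it ran from -0.08 to 0.04, from -0.15 to -0.01 and from 0.02 to 0.09 in the 3 comparisons in the order above. Uncalled fold changes that turned sign for PLK2 against Vector were SPRY2 with limma (0.00), SPRED1 with the GC content and length correction (-0.04) and, with 1 library left out, DUSP4 (-0.32 to 0.08), SPRY2 (-0.02 to 0.02), the DUSP6 count ratio (-0.04 to 0.65), ETV4 (-0.14 to 0.13) and ETV5 (-0.17 to 0.53). With 1 library left out, DUSP5 (-0.13 to 0.03) and ETV5 (-0.71 to 0.01) did so for PLK2(D223N) against Vector, and SPRY1 (-0.10 to 0.06) and DUSP5 (-0.21 to 0.06) for PLK2 against PLK2(D223N), where SPRY1 also did so without a filter (0.01) and with PLK2 left out before scaling (0.00). The cause was not tested. Depth limited DUSP6 and SPRY4, which had 55 and 28 counts in all, and ETV4 and ETV5, which had 92 and 99.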

Other observations

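The mean log2 CPM of the 8 tested feedback genes, a summary in which each gene counts alike, was 2.23, 2.22 and 2.10 in PLK2 libraries, 2.03, 2.01 and 2.19 in PLK2(D223N) libraries and 2.29, 1.99 and 2.18 in Vector libraries. The groups overlapped, and the highest and the lowest library were both Vector libraries, replicate 1 and replicate 2. Genes with few counts weigh as much as the others in this summary. In these Vector libraries ETV5 had 17 and 4 counts and DUSP4 33 and 17.

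The 3 feedback genes with the widest range of group means were ETV5, ETV4 and DUSP4, whose group means spanned 0.47, 0.32 and 0.23 on the log2 CPM scale. These log2 CPM values include a prior count, which narrows differences at low counts. The fitted log2 fold changes of PLK2 over PLK2(D223N) were 0.52 for ETV5 and 0.38 for ETV4. ETV5, ETV4 and DUSP4 also had the fewest counts of the 8 tested, 99, 92 and 192 in all. Their ratios of observed to counting variance were 1.64 for ETV5, 0.340 for ETV4 and 0.803 for DUSP4, beside about 1 for counting error alone. Among 10543 genes, those whose centred log2 CPM over the 9 libraries lay nearest to ETV5 were HINT2 and SPATA2L, each at a root mean square difference of 0.35. Nearest to ETV4 were MB21D2 at 0.10 and GPR50 at 0.11, and nearest to DUSP4 were MED9 and CCDC74A at 0.10 each. The root mean square of the centred values themselves was 0.50 for ETV5, 0.21 for ETV4 and 0.21 for DUSP4. Each likeness rests on 9 libraries.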
